A study of Mus musculus with 12 samples.

Results

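The solute carriers are membrane transporters whose gene symbols begin with Slc, and 169 of these genes, on 196 probes, were followed through the differentiation of mouse embryonic stem cells. A probe was taken when its symbol had the form Slc, a family number, the letter a and a member number, and when its detection p-value was under 0.05 on at least 3 of the 12 arrays. The array held 382 such probes with 1 symbol each, for 290 genes. Apart from 4 genes left out by name, 181 probes were not detected on enough arrays and 117 genes had no detected probe. The genes left out were Slc2a1, Slc2a3, Slc7a11 and Slc25a31; Slc2a1 and Slc2a3 had 1 detected probe each, and Slc7a11 and Slc25a31 had 0. Detection on these arrays chose the members, so a gene that was bright on a single day could enter through that day, and counts over the members are descriptions.

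The cells were W9.5, a mouse embryonic stem cell line, sampled on days 0, 4, 8 and 15 with 3 arrays per day. All 12 arrays carry 1 treatment text in the labels, day 0 included: activin A, retinoid acid (the labels' spelling), and then retinoid acid together with fibroblast growth factor, in sequence and with pancreatic progenitors as the stated product. The labels do not tie an agent to a day and name no genetic change. They do not say that the 3 replicates of a day were separate cultures, so the p-values measure the spread between these arrays. RNA came from whole cultures, in which fewer cells of a type and less RNA per cell cannot be told apart.

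Solute carriers move amino acids, sugars, ions, metals, vitamins, nucleosides and metabolites across the plasma membrane and the membranes of organelles, mostly by facilitated diffusion or by coupling the substrate to a gradient of sodium, protons or another substrate. The family number of a symbol groups genes by sequence, and members of a family usually share a substrate class. In embryonic stem cells the best known roles are the uptake of amino acids and glucose that feeds rapid growth, and in endoderm and its organs the handling of iron, zinc, bile acids and glucose phosphate. Genes were placed in 10 substrate classes by family number.

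Between 132 and 156 of the 169 genes were detected on a single array, and 107 were detected on all 12. Levels are log2 intensities from the authors' value table. Those of the solute carriers correlated at 0.989 to 0.992 between arrays of 1 day and at 0.840 to 0.954 between arrays of different days (Pearson, across genes, which are not independent replicates). The labelled cell type was checked against marker lists. All 8 pluripotency genes were detected on every array, Pou5f1, Sox2 and Nanog among them, and 7 of the 8 were lower on day 8 than on day 4, while 6 of 7 tested endoderm genes were higher. On day 15 against day 8, 5 of the 8 pluripotency genes were higher and 0 lower. Against day 0, 7 of them were lower on day 15 and 1 was higher. Of 8 pancreas genes with a probe, only Ins2 and Sst were detected on all 3 arrays of day 15, and Pdx1, Ptf1a, Nkx6-1 and Neurog3 on none of them. Ins2 was also detected on all 3 arrays of day 0, and its day means stayed between 6.37 and 6.43. Sst was detected on no array before day 15.

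At the edge of the detection rule, Slc24a1, Slc26a10, Slc27a5 and Slc27a6 were detected on 3 arrays and entered, with day means between 5.87 and 6.86. Slc22a28, Slc24a4, Slc25a29 and Slc25a35 were detected on 2 arrays and did not enter, with day means between 5.56 and 6.40. The ranges of the 2 groups overlapped. The lowest level among detected probes lay between 6.27 and 6.43 on the 12 arrays, and the values are not background-subtracted, so folds of dim genes are compressed. Where a probe was detected on no array of its dimmer day, the fold is given as a lower bound from that floor.

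Over the 4 days, 130 of the 169 genes changed (limma F-test, adjusted p under 0.05 over 9657 genes), which is 76.9% of them against 75.2% of all genes tested. Their means differed between the highest and lowest day by a median of 0.71 on the log2 scale, against 0.65 for all genes, while the median SD within a day was 0.13. The span reached 1 in 56 genes and 2 in 15. Among the 130 changed genes, day 0 held the highest mean of 30, day 4 of 23, day 8 of 29 and day 15 of 48. The share with day 15 highest was 36.9%, against 28.6% of all changed genes, and the share with day 0 highest was 23.1%, against 35.1%. Among the genes detected on all 12 arrays, which could not enter through a single bright day, these shares were 28.4% against 26.1% for day 15 and 30.7% against 38.9% for day 0. The heatmap shows the 56 genes by array.

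**Figure D1:**
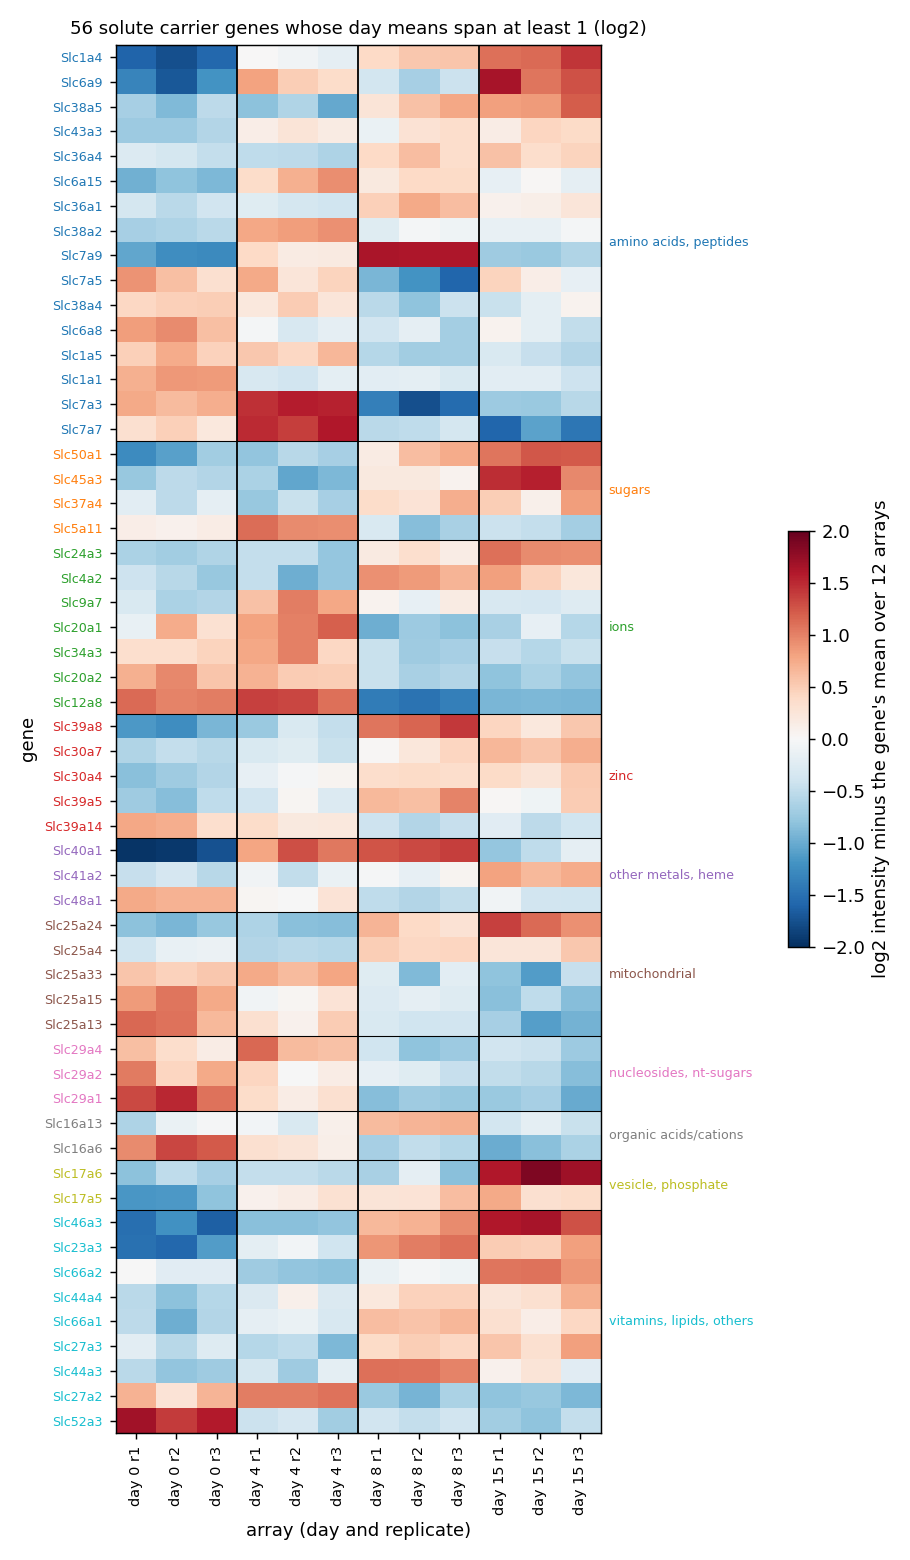
Heatmap of the 56 solute carrier genes whose day means span at least 1 on the log2 scale. Columns are the 12 arrays in day order, rows are genes grouped by substrate class, and colour is the log2 intensity minus the gene's mean over all arrays; the 3 arrays of a day look alike for most genes, and the sharpest break in the columns lies between day 4 and day 8.

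The step with the most changes was day 8 against day 4. Here 57 genes were higher (33.7%, background 28.5%) and 42 lower (24.9%, background 26.3%). On day 4 against day 0, 27 genes were higher (16%, background 14.3%) and 17 lower (10.1%, background 13.6%). On day 15 against day 8, 26 were higher (15.4%, background 12.5%) and 19 lower (11.2%, background 9.31%). Day 15 against day 0 gave 68 higher (40.2%, background 31.8%) and 48 lower (28.4%, background 35.6%). Among the 107 genes detected on every array, the last comparison gave 38 higher (35.5%, background 29.7%) and 40 lower (37.4%, background 40.5%), and the median change over them was -0.09 against -0.15 for all genes detected on every array. On day 8 against day 4 the same genes gave 34 higher (31.8%, background 28.3%) and 35 lower (32.7%, background 29.1%). In both comparisons higher genes thus outnumbered lower ones among the 169 and not among these 107. In the 3 steps the shares lay near those of all genes.

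**Figure D2:**
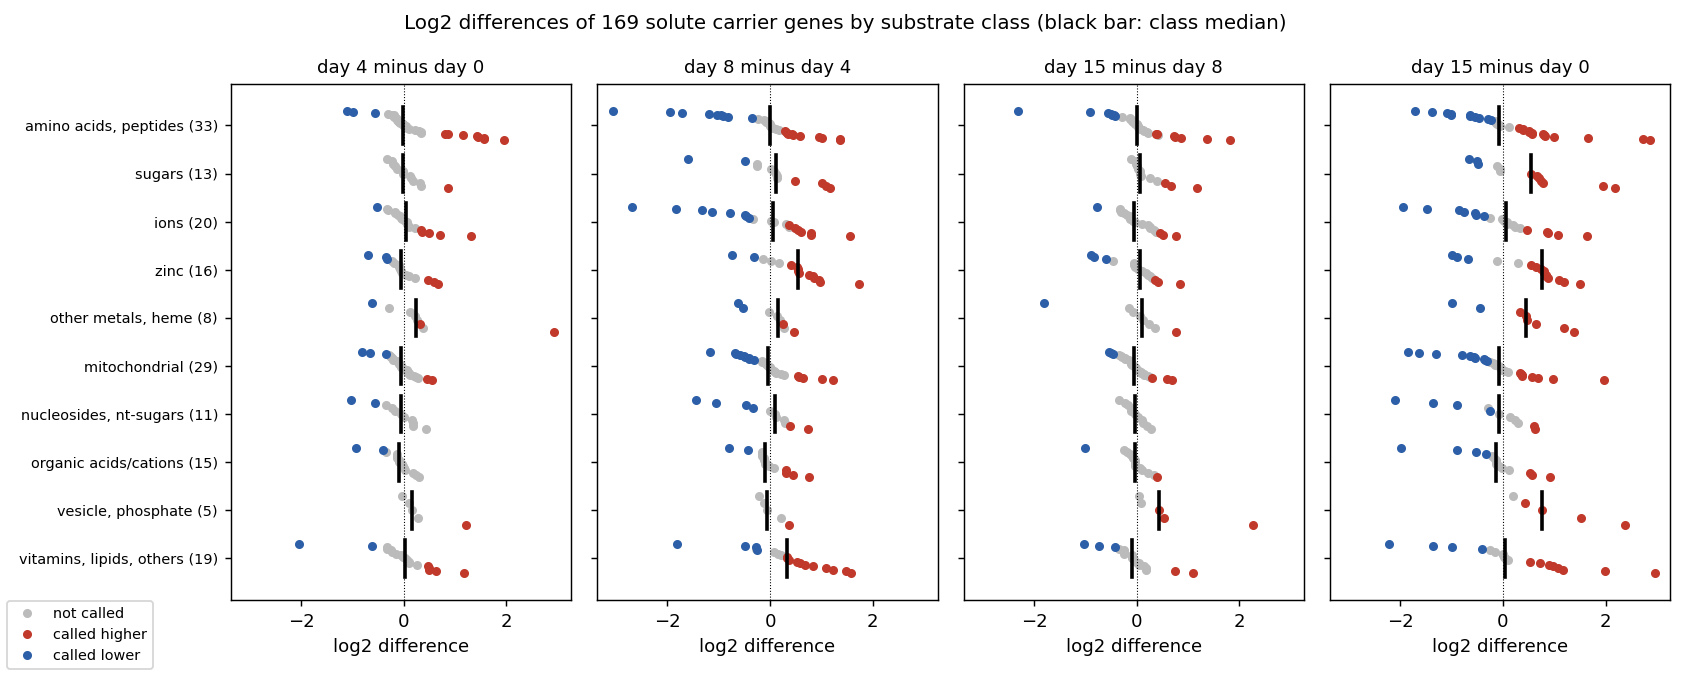
Log2 differences of the 169 genes in 4 comparisons, with 1 point per gene, grouped by substrate class (number of genes in brackets). Red points passed adjusted p under 0.05 as higher, blue points as lower and grey points did not pass; black bars are class medians, and the zinc median stands to the right of 0 on day 8 against day 4 and on day 15 against day 0.

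Amino acid and peptide transporters (33 genes) went in both directions and held the largest fall of any step. Between days 15 and 0, 14 were higher (42.4%, background 31.8%) and 11 lower (33.3%, background 35.6%), with a median change of -0.09. On day 8 against day 4, 10 were higher (30.3%, background 28.5%) and 9 lower (27.3%, background 26.3%), shares near those of all genes, and without day 8 replicate 3 the counts were 7 and 9. Slc1a4, the ASCT1 carrier of serine, alanine and other small neutral amino acids, rose at every step. Its log2 level was 8.96, 8.79 and 8.98 for day 0, 10.57, 10.47 and 10.37 for day 4, 10.96, 11.09 and 11.11 for day 8, and 11.66, 11.68 and 11.99 for day 15. No 2 successive days overlapped. It was higher on day 4 than on day 0 (log2 change 1.56 ± 0.11, 2.95-fold, adjusted p = 9.89e-09), on day 8 than on day 4 (log2 change 0.58 ± 0.11, adjusted p = 0.000253) and on day 15 than on day 8 (log2 change 0.72 ± 0.11, adjusted p = 9.99e-05), which came to 7.29-fold over the series (log2 change 2.87 ± 0.11, adjusted p = 4.43e-13, SE, n = 3 arrays per day, here and below). Its relative Slc1a5, the ASCT2 carrier of glutamine, went the other way: its level was 7.68, 7.96 and 7.67 for day 0, 7.74, 7.63 and 7.88 for day 4, 6.63, 6.51 and 6.54 for day 8, and 6.91, 6.74 and 6.62 for day 15, and it was lower on day 8 than on day 4 (log2 change -1.19 ± 0.11, 2.28-fold, adjusted p = 9.87e-08).

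The Slc1a4 promoter is shown because its levels rose at each step and because amino acid shortage is known to act on many amino acid transporter genes through a C/EBP-ATF response element. The window at the gene's first listed start runs from 250 bases before to 50 bases after the start, from RefSeq on GRCm38.p6 at chr11:20332664-20332963, minus strand, printed along the gene, and capitals mark 1 match to TGATGNAA on the reverse strand. Both strands were searched.
Slc1a4: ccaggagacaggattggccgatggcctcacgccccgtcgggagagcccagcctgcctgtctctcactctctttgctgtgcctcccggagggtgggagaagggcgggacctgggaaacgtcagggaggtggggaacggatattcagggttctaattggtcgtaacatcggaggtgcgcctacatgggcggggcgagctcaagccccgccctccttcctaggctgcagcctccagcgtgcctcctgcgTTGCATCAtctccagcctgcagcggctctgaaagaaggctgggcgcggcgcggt
Of 32841 windows in the reference table, 3.97% held this motif, against 3.23% of the 186 windows of the solute carriers (136 of 169 genes had a window) and 3 of 36 windows of amino acid transporters (8.33%). The 3 windows belong to 2 of 24 genes, Slc1a4 and Slc7a7, and the 2 of Slc7a7 overlap and share a match. A match describes letters and not a bound site.

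Several carriers of neutral amino acids rose, at different steps. Slc6a9, the GLYT1 glycine transporter, had a level of 7.06, 6.70 and 7.19 for day 0, 9.19, 8.87 and 8.76 for day 4, 8.02, 7.73 and 7.95 for day 8, and 10.04, 9.45 and 9.66 for day 15. It was high on days 4 and 15 and lower in between, and successive days did not overlap. Day 4 was above day 0 (log2 change 1.96 ± 0.16, 3.88-fold, adjusted p = 6.18e-08), day 8 below day 4 (log2 change -1.04 ± 0.16, 2.06-fold, adjusted p = 3.03e-05) and day 15 above day 8 (log2 change 1.82 ± 0.16, 3.52-fold, adjusted p = 1.56e-07). Slc38a2, the SNAT2 carrier of small neutral amino acids that answers to amino acid supply, had a level of 10.58, 10.62 and 10.70 for day 0, 12.02, 12.08 and 12.16 for day 4, 11.01, 11.20 and 11.16 for day 8, and 11.10, 11.10 and 11.21 for day 15. Day 4 lay above all other days. Its rise on day 4 against day 0 (log2 change 1.45 ± 0.10, 2.74-fold, adjusted p = 3.52e-09) passed, and it was lower on day 8 than on day 4 (log2 change -0.97 ± 0.10, 1.95-fold, adjusted p = 1.38e-07). A second Slc38a2 probe did not pass in either comparison, with changes of 0.11 and -0.06. Slc6a15, a carrier of branched-chain amino acids and proline, was detected on 2 arrays of day 0 and was higher on day 4 (log2 change 1.56 ± 0.13, 2.95-fold, adjusted p = 5.92e-08). Slc38a5, the SNAT5 carrier of glutamine and glycine, came up on day 8 against day 4 (log2 change 1.36 ± 0.15, 2.56-fold, adjusted p = 7.19e-07).

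Slc7a3 and Slc7a7, which carry cationic amino acids, fell between day 4 and day 8. Slc7a3, the CAT3 carrier of arginine and lysine, had a level of 11.93, 11.81 and 11.90 for day 0, 12.64, 12.74 and 12.71 for day 4, 9.81, 9.42 and 9.64 for day 8, and 10.45, 10.43 and 10.62 for day 15. Every array of day 8 lay below every array of the other days. Day 4 exceeded day 0 (log2 change 0.81 ± 0.11, 1.76-fold, adjusted p = 1.71e-05), and day 8 fell below day 4 (log2 change -3.07 ± 0.11, 8.40-fold, adjusted p = 3.7e-13), the largest fall of any solute carrier tested in that step. Slc7a7, the light chain of the y+LAT1 exchanger of cationic and neutral amino acids, had a level of 9.87, 10.03 and 9.76 for day 0, 11.03, 10.92 and 11.14 for day 4, 9.01, 9.04 and 9.19 for day 8, and 7.96, 8.48 and 8.10 for day 15. It was highest on day 4 and lowest on day 15. Day 4 exceeded day 0 (log2 change 1.15 ± 0.13, 2.22-fold, adjusted p = 2.81e-06), and day 8 was lower than day 4 (log2 change -1.95 ± 0.13, 3.86-fold, adjusted p = 9.84e-10). A second Slc7a7 probe moved in the same directions, by 0.43 and -0.74.

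The 2 chains of the LAT1 exchanger of large neutral amino acids moved in the same direction at the last 2 steps. Slc7a5, its transporting chain, had a level of 12.003, 11.70 and 11.42 for day 0, 11.86, 11.35 and 11.54 for day 4, 10.18, 9.91 and 9.52 for day 8, and 11.55, 11.24 and 10.94 for day 15. Slc3a2, the heavy chain that carries several Slc7 partners to the membrane, had a level of 10.85, 10.52 and 10.66 for day 0, 10.63, 10.53 and 10.65 for day 4, 9.94, 9.46 and 9.94 for day 8, and 10.61, 10.28 and 10.70 for day 15. In both genes the 3 arrays of day 8 lay below all other arrays. On day 8 against day 4, Slc7a5 was 3.28-fold lower (log2 change -1.71 ± 0.19, adjusted p = 4.99e-07) and Slc3a2 1.77-fold lower (log2 change -0.82 ± 0.14, adjusted p = 8.56e-05). On day 15 against day 8, Slc7a5 was 2.59-fold higher (log2 change 1.37 ± 0.19, adjusted p = 2.51e-05) and Slc3a2 1.68-fold higher (log2 change 0.75 ± 0.14, adjusted p = 0.000696).

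Slc7a9, the light chain of the renal and intestinal cystine carrier, peaked on day 8. Its level was 6.49, 6.30 and 6.27 for day 0, 7.94, 7.70 and 7.72 for day 4, 9.17, 9.15 and 9.16 for day 8, and 6.83, 6.79 and 6.94 for day 15, with detection on 1 array of day 0 and on all later arrays. Day 8 lay above every other day. It was higher on day 4 than on day 0 (log2 change 1.43 ± 0.11, 2.70-fold, adjusted p = 1.49e-08) and on day 8 than on day 4 (log2 change 1.37 ± 0.11, 2.59-fold, adjusted p = 6.12e-09), and lower on day 15 than on day 8 (log2 change -2.30 ± 0.11, 4.94-fold, adjusted p = 3.73e-11). In the same arrays the markers of visceral endoderm and liver summed to 4103 to 6096 on day 15, against 19437 to 23791 on day 8 (linear intensity, 7 genes with a probe), and 6 of 6 tested were lower on day 15. Of these markers Alb was detected on no array of either day, Afp, Ttr, Apoa1, Apoa2 and Amn on all of them. Their part in the Slc7a9 peak was not tested.

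Other amino acid and related carriers fell on day 4 or day 8. Slc1a1, the EAAT3 carrier of glutamate and cysteine, had a level of 7.51, 7.66 and 7.65 for day 0, 6.48, 6.42 and 6.60 for day 4, 6.58, 6.60 and 6.50 for day 8, and 6.59, 6.59 and 6.39 for day 15. Day 0 lay above every later array. It was lower on day 4 than on day 0 (log2 change -1.11 ± 0.10, 2.15-fold, adjusted p = 1.69e-07). Slc6a8, the creatine transporter of the same family as the glycine carrier, was also lower on day 4 than on day 0 (log2 change -0.98 ± 0.15, 1.97-fold, adjusted p = 8.58e-05). Slc38a4, the SNAT4 carrier encoded by an imprinted mouse gene, was lower on day 8 than on day 4 (log2 change -0.91 ± 0.13, 1.88-fold, adjusted p = 1.16e-05). Of the 19 genes of this class not named under the selection rule, 8 were higher and 4 lower on day 15 than on day 0, with changes between -0.63 and 1.001. Over all genes tested, 31.8% were higher and 35.6% lower in that comparison.

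**Figure D3:**
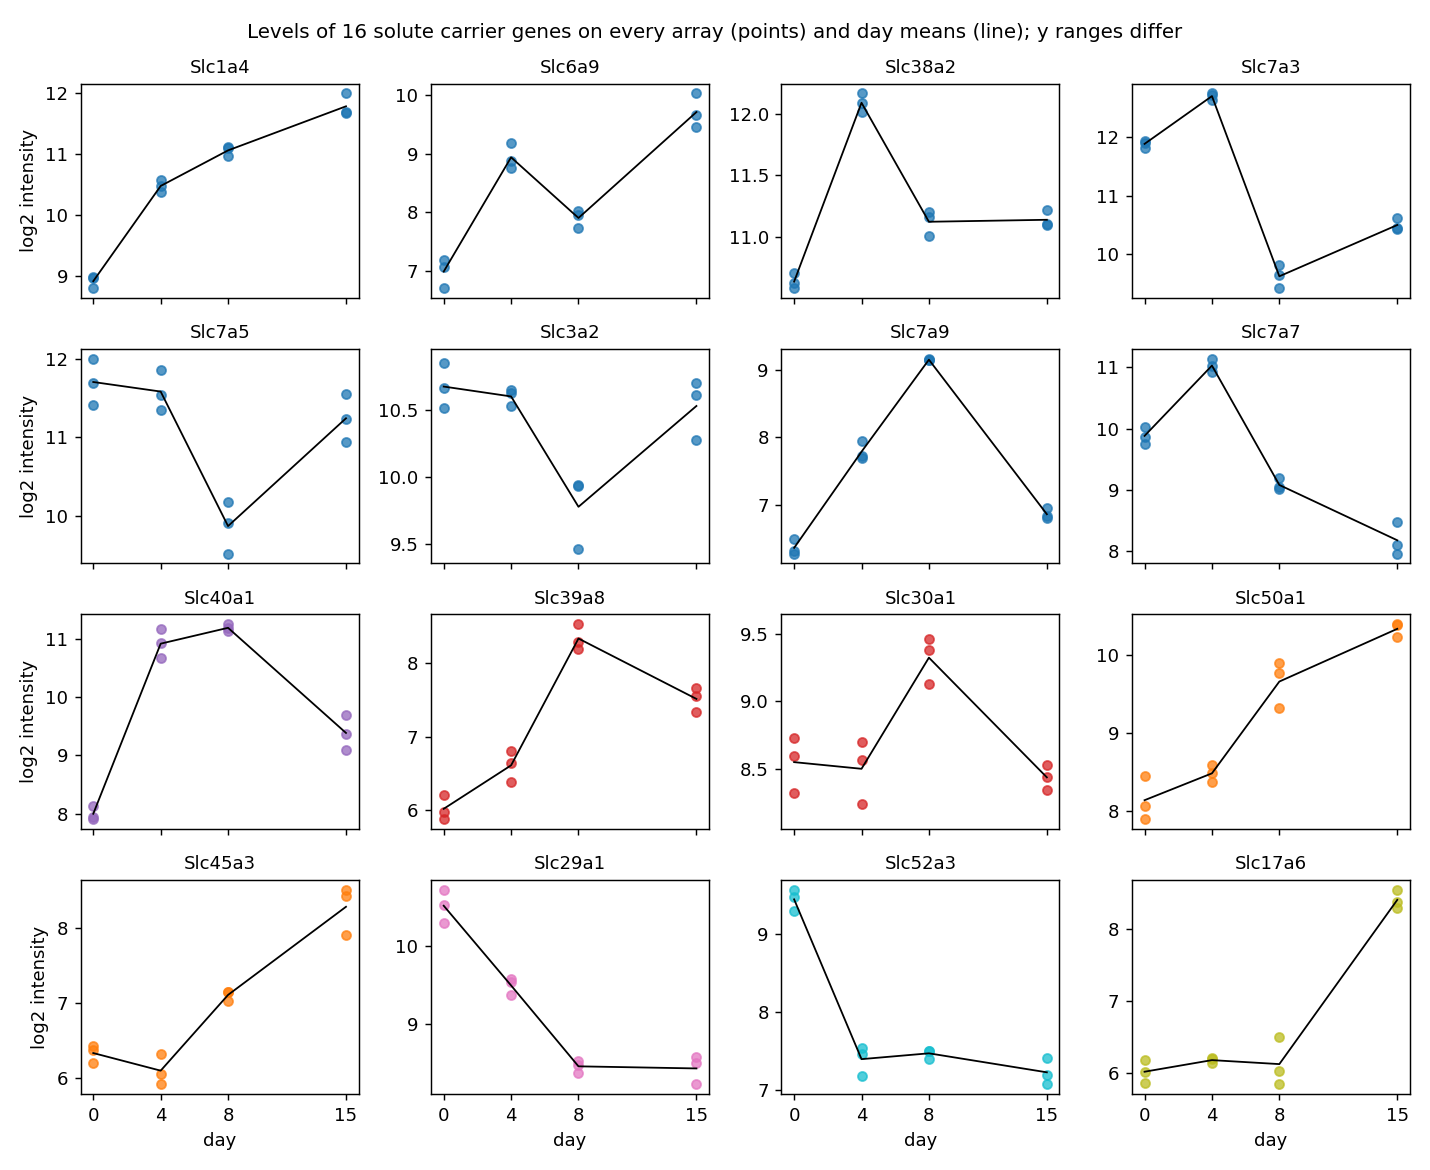
Log2 intensity of 16 solute carrier genes on each of the 12 arrays (points) against day of differentiation, with lines through the day means and a separate y range in each panel. Slc1a4 rises through all 4 days, and Slc50a1 rises from day 4 to day 8 and from day 8 to day 15. Slc7a5 and Slc3a2 dip on day 8, Slc7a9 and Slc39a8 peak on day 8, and Slc17a6 lies near the detection floor until day 15.

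Sugar and glucose phosphate transporters (13 genes) had 7 higher (53.8%, background 31.8%) and 3 lower (23.1%, background 35.6%) on day 15 than on day 0, with a median change of 0.54. Of the 10 that changed over the 4 days, 7 had their highest mean on day 15 (70%, against 28.6% of all changed genes). Only 5 of the 13 were detected on all 12 arrays. Of these, 3 were higher (60%, background 29.7%) and 1 lower (20%, background 40.5%) on day 15 than on day 0. Slc50a1, the SWEET1 sugar efflux carrier, had a level of 7.90, 8.07 and 8.46 for day 0, 8.37, 8.59 and 8.49 for day 4, 9.32, 9.76 and 9.89 for day 8, and 10.22, 10.39 and 10.38 for day 15. Days 8 and 15 lay above days 0 and 4. It was higher on day 8 than on day 4 (log2 change 1.17 ± 0.15, 2.26-fold, adjusted p = 4.19e-06) and on day 15 than on day 8 (log2 change 0.67 ± 0.15, 1.60-fold, adjusted p = 0.00348), and 4.56-fold higher on day 15 than on day 0 (log2 change 2.19 ± 0.15, adjusted p = 8.72e-10). Slc45a3, whose protein transports sugars in experimental systems and whose human counterpart is known as prostein, had a level of 6.19, 6.42 and 6.37 for day 0, 6.32, 5.91 and 6.05 for day 4, 7.14, 7.15 and 7.02 for day 8, and 8.43, 8.51 and 7.91 for day 15. Its probe was detected on 2 arrays of day 0, none of day 4 and all later ones. Each step after day 4 was a rise: day 8 was at least 1.68-fold higher than day 4 (log2 change 1.01 ± 0.14, adjusted p = 1.1e-05), and day 15 exceeded day 8 (log2 change 1.18 ± 0.14, 2.26-fold, adjusted p = 7.08e-06).

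Slc37a4, the carrier that brings glucose-6-phosphate into the endoplasmic reticulum for the last step of glucose release, had a level of 7.15, 6.83 and 7.18 for day 0, 6.60, 6.90 and 6.69 for day 4, 7.73, 7.63 and 8.08 for day 8, and 7.85, 7.47 and 8.19 for day 15. Days 8 and 15 lay above days 0 and 4, and day 8 exceeded day 4 (log2 change 1.08 ± 0.17, 2.12-fold, adjusted p = 2.45e-05). Slc5a11, a sodium-coupled carrier of inositol and glucose, went down: its level was 6.77, 6.72 and 6.78 for day 0, 7.74, 7.58 and 7.56 for day 4, 6.33, 5.78 and 5.99 for day 8, and 6.19, 6.16 and 5.95 for day 15. It was detected on every array of days 0 and 4 and on none of days 8 and 15. Day 8 was at least 2.43-fold lower than day 4 (log2 change -1.59 ± 0.12, adjusted p = 6.29e-09). Slc2a6, a lysosomal hexose carrier of the facilitative glucose transporter family, was detected on no array of days 0 and 4 and on all 3 of day 15, with a level at least 1.31-fold higher than that of day 0 (log2 change 0.71 ± 0.13, adjusted p = 8.11e-05). Slc2a5, the fructose carrier of the same family, had a day 15 level at least 1.20-fold lower than day 0 (log2 change -0.48 ± 0.14, adjusted p = 0.00493) and was detected on 2 arrays of day 0. Slc5a5, the iodide carrier, is in the class by family number only; against day 0, day 15 was at least 1.29-fold higher (log2 change 0.74 ± 0.09, adjusted p = 2.06e-06). Slc5a6, a vitamin carrier, is there by family number only as well. It was the 1 lower gene among the 5 of the class detected on all 12 arrays (-0.50 for day 15 against day 0). Probes for Slc2a2, the glucose carrier of liver and beta cells, were detected on at most 1 array, and the probe for Slc5a1, the intestinal glucose carrier, on 0.

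Ion transporters (20 genes) split on day 8 against day 4, with 7 higher (35%, background 28.5%) and 8 lower (40%, background 26.3%). Over the whole series 5 were higher (25%, background 31.8%) and 7 lower (35%, background 35.6%), and without day 0 replicate 1 the counts became 8 and 7. Of the 9 ion genes detected on every array, 2 were higher (22.2%, background 28.3%) and 5 lower (55.6%, background 29.1%) on day 8 than on day 4. On day 15 against day 0 these 9 gave 1 higher (11.1%, background 29.7%) and 5 lower (55.6%, background 40.5%). Slc12a8, a member of the cation and chloride cotransporter family that has also been described as a carrier of nicotinamide mononucleotide, had a level of 9.05, 8.91 and 8.95 for day 0, 9.29, 9.26 and 9.03 for day 4, 6.52, 6.44 and 6.55 for day 8, and 7.003, 7.03 and 7.01 for day 15. Days 0 and 4 lay well above days 8 and 15. Day 8 was lower than day 4 (log2 change -2.69 ± 0.10, 6.44-fold, adjusted p = 9.46e-13), and day 15 was slightly above day 8 (log2 change 0.51 ± 0.10, 1.42-fold, adjusted p = 0.00145). The phosphate carrier Slc20a1 had a level of 10.74, 11.63 and 11.20 for day 0, 11.70, 11.91 and 12.09 for day 4, 9.92, 10.18 and 10.07 for day 8, and 10.25, 10.73 and 10.33 for day 15. Day 8 lay below every array of day 4, and the fall was 3.59-fold (log2 change -1.84 ± 0.18, adjusted p = 1.2e-07).

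Slc4a2, the AE2 exchanger of chloride and bicarbonate, moved up in the same step. Its level was 9.09, 8.95 and 8.75 for day 0, 9.04, 8.53 and 8.74 for day 4, 10.42, 10.35 and 10.19 for day 8, and 10.33, 9.96 and 9.73 for day 15, with days 8 and 15 above days 0 and 4. Day 8 exceeded day 4 (log2 change 1.55 ± 0.15, 2.94-fold, adjusted p = 1.55e-07). Slc24a3, an exchanger of sodium for calcium and potassium, had a level of 6.28, 6.21 and 6.31 for day 0, 6.43, 6.43 and 6.13 for day 4, 7.08, 7.24 and 7.04 for day 8, and 8.004, 7.85 and 7.83 for day 15, with no detection on day 0, 2 arrays on day 4 and all later ones. Day 15 exceeded day 8 (log2 change 0.77 ± 0.11, 1.71-fold, adjusted p = 3.16e-05). Against day 0 it was at least 2.88-fold higher (log2 change 1.63 ± 0.11, adjusted p = 4.01e-10). Both detected sodium phosphate carriers of the Slc34 family were found on separate days. Slc34a3 was detected on every array of days 0 and 4 and none of days 8 and 15, and day 8 was at least 1.79-fold lower than day 4 (log2 change -1.34 ± 0.13, adjusted p = 8.05e-08). Slc34a2, a phosphate carrier of lung and gut epithelium, was detected on none of days 0 and 4 and all 6 later arrays, and day 15 was at least 1.20-fold higher than day 0 (log2 change 0.88 ± 0.11, adjusted p = 2.03e-06). Slc26a10 was detected on the 3 arrays of day 8 alone. Slc9a8, an exchanger of sodium and protons in the Golgi, had 3 detected probes that passed in opposite directions on day 8 against day 4, with changes between -0.29 and 0.47, so no direction is given for it.

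Zinc transporters (16 genes) changed over the 4 days in every case by the F-test (100%, background 75.2%) and mostly rose between day 4 and day 8. In that step 11 were higher (68.8%, background 28.5%) and 2 lower (12.5%, background 26.3%), with a median change of 0.55 against -0.01 for all genes tested. The count of lower genes was 1 without day 4 replicate 1 or 2, without day 8 replicate 2 or 3, or with scanner intensities scaled to a common median, and the count of higher genes stayed at 11 without any 1 of the 12 arrays. Over the whole series, day 15 against day 0, 11 were higher (68.8%, background 31.8%) and 3 lower (18.8%, background 35.6%), with a median of 0.77 against -0.08. Among the 12 zinc genes detected on every array, 8 were higher (66.7%, background 28.3%) and 1 lower (8.33%, background 29.1%) on day 8 than on day 4. On day 15 against day 0, 8 of them were higher (66.7%, background 29.7%) and 2 lower (16.7%, background 40.5%). Proteins of the Slc39 family, the ZIP carriers, bring zinc into the cytosol from outside or from organelles, and those of the Slc30 family, the ZnT carriers, take it out. In the same step the markers of visceral endoderm and liver summed to 19437 to 23791 on day 8, against 3530 to 4130 on day 4, with 5 of 6 tested higher and Alb detected on no array of either day. The endoderm genes summed to 11240 to 13273 on day 8, against 2440 to 2813 on day 4. The part of these markers in the zinc result was not tested. Both families held genes that moved in each direction. Of 10 ZIP genes, 7 were higher (70%, background 31.8%) and 2 lower (20%, background 35.6%) on day 15 than on day 0. Of 6 ZnT genes, 4 were higher (66.7%) and 1 lower (16.7%) in that comparison, against the same background.

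Among the ZIP carriers, Slc39a8, which also takes up manganese and other metals, changed most. Its level was 5.97, 5.87 and 6.20 for day 0, 6.38, 6.81 and 6.64 for day 4, 8.20, 8.29 and 8.54 for day 8, and 7.55, 7.33 and 7.66 for day 15, with no detection on day 0, 2 arrays on day 4 and all later ones. Day 8 lay above every other day. The rise on day 8 against day 4 (log2 change 1.73 ± 0.13, 3.32-fold, adjusted p = 6.58e-09) was followed by a fall on day 15 against day 8 (log2 change -0.82 ± 0.13, 1.77-fold, adjusted p = 0.00018). A second detected probe moved in the same directions, by 1.01 and -0.61. Slc39a5, a ZIP carrier of the gut and pancreas, had a level of 5.93, 5.80 and 6.14 for day 0, 6.26, 6.69 and 6.37 for day 4, 7.30, 7.25 and 7.63 for day 8, and 6.67, 6.56 and 7.16 for day 15. It was not detected on day 0, and day 8 exceeded day 4 (log2 change 0.95 ± 0.16, 1.94-fold, adjusted p = 5.24e-05). Slc39a4, the intestinal zinc importer lost in human acrodermatitis enteropathica, was also higher on day 8 than on day 4 (log2 change 0.98 ± 0.17, 1.97-fold, adjusted p = 9.8e-05). Slc39a14, an importer of zinc, manganese and iron in liver, went down: its level was 7.31, 7.27 and 6.86 for day 0, 6.90, 6.73 and 6.75 for day 4, 6.13, 5.95 and 6.07 for day 8, and 6.31, 6.01 and 6.14 for day 15, with no detection on day 8. Day 8 was at least 1.36-fold lower than day 4 (log2 change -0.74 ± 0.12, adjusted p = 4.94e-05). A second Slc39a14 probe did not pass in that comparison (-0.06). Of the 8 zinc genes not named under the selection rule, 7 were higher and 1 lower on day 15 than on day 0, with changes between -0.69 and 0.88. The shares over all genes tested were 31.8% higher and 35.6% lower.

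Among the ZnT carriers, Slc30a1, the zinc exporter of the plasma membrane, had a level of 8.32, 8.59 and 8.73 for day 0, 8.23, 8.56 and 8.70 for day 4, 9.13, 9.38 and 9.47 for day 8, and 8.34, 8.43 and 8.53 for day 15. Day 8 lay above every other day. It was higher on day 8 than on day 4 (log2 change 0.83 ± 0.14, 1.78-fold, adjusted p = 6.75e-05) and lower on day 15 than on day 8 (log2 change -0.89 ± 0.14, 1.86-fold, adjusted p = 0.000109). Slc30a4, which loads zinc into vesicles and milk, had a level of 7.01, 7.14 and 7.27 for day 0, 7.68, 7.83 and 7.90 for day 4, 8.21, 8.23 and 8.20 for day 8, and 8.23, 8.11 and 8.37 for day 15. Successive rises passed on day 4 against day 0 (log2 change 0.67 ± 0.11, 1.59-fold, adjusted p = 0.000166) and on day 8 against day 4 (log2 change 0.41 ± 0.11, adjusted p = 0.0045). Slc30a7, a ZnT of the Golgi, was 2.28-fold higher on day 15 than on day 0 (log2 change 1.19 ± 0.12, adjusted p = 7.2e-08). Slc30a2, a vesicular ZnT of secretory epithelium, was the ZnT that fell: its level was 7.96, 7.54 and 7.73 for day 0, 7.17, 6.96 and 7.02 for day 4, 6.89, 6.98 and 6.85 for day 8, and 6.99, 6.77 and 6.80 for day 15. Day 0 lay above all later arrays, and day 4 was lower than day 0 (log2 change -0.69 ± 0.12, 1.61-fold, adjusted p = 0.000232). The 2 probes for Slc30a8, the zinc carrier of insulin granules in beta cells, were detected on 0 arrays.

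**Figure D4:**
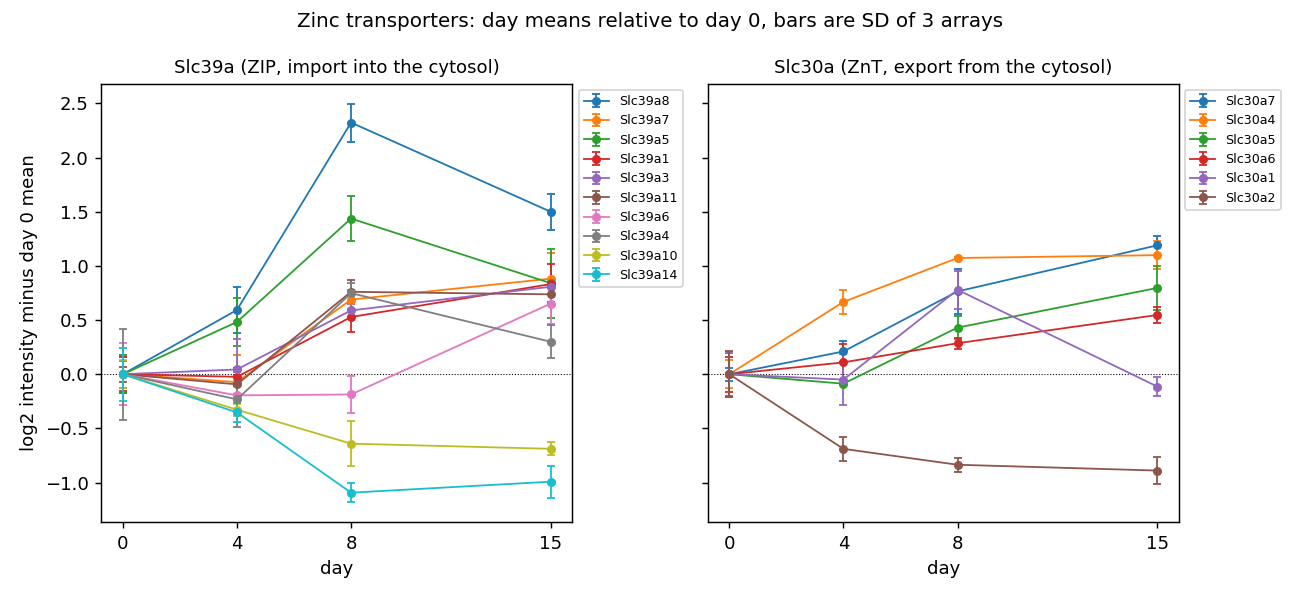
Day means of the 16 zinc transporter genes relative to day 0 (log2 intensity difference) against day, with ZIP genes (Slc39) on the left and ZnT genes (Slc30) on the right; bars are the SD of 3 arrays. Slc39a8 and Slc39a5 peak on day 8, Slc30a1 rises on day 8 and is back near its day 0 level on day 15, and Slc39a14, Slc39a10 and Slc30a2 end below day 0.

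Zinc itself acts on Slc30a1 through metal response elements bound by the factor MTF-1, and the promoters of 3 ZnT genes are shown for that reason: 1 that peaked on day 8, 1 that rose and 1 that fell. Windows and build are as described for Slc1a4. They lie at chr1:191906531-191906830 (plus strand, Slc30a1), chr2:122702614-122702913 (minus strand, Slc30a4) and chr4:134343216-134343515 (plus strand, Slc30a2). Capitals mark matches to the core TGCGCNC or TGCACNC on either strand, of which Slc30a1 had 2, Slc30a4 3 and Slc30a2 2.
Slc30a1: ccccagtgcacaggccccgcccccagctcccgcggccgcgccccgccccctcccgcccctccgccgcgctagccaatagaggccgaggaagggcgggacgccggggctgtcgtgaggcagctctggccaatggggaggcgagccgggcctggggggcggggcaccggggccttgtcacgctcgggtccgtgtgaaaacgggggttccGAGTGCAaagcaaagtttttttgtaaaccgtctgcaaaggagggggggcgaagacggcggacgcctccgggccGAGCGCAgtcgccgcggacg
Slc30a4: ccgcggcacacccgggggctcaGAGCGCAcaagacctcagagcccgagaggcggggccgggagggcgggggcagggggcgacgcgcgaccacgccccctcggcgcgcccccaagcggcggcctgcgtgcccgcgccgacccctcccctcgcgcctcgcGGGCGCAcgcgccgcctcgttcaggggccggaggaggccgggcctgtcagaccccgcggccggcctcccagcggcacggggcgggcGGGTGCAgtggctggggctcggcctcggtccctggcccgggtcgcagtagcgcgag
Slc30a2: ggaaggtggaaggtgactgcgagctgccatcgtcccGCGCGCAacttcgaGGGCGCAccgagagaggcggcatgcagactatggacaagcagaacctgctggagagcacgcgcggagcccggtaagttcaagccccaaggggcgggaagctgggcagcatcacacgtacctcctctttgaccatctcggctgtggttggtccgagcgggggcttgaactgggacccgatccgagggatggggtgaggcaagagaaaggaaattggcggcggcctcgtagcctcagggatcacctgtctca
The core occurred in 25.7% of all 32841 windows, in 33.9% of the solute carrier windows and in 9 of 17 windows of zinc transporters (52.9%). It stood in the window of Slc30a2, which fell, as well as in those of Slc30a1 and Slc30a4. The letters alone say nothing about binding in these cells.

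The other metal and heme carriers (8 genes) included the largest rise of the first step. Slc40a1, ferroportin, is the iron exporter of the cell membrane. Its level was 7.91, 7.95 and 8.14 for day 0, 10.67, 11.17 and 10.92 for day 4, 11.13, 11.19 and 11.26 for day 8, and 9.10, 9.37 and 9.70 for day 15. Days 4 and 8 lay above day 15, and day 15 above day 0. Ferroportin was higher on day 4 than on day 0 (log2 change 2.92 ± 0.15, 7.57-fold, adjusted p = 9.21e-11) and lower on day 15 than on day 8 (log2 change -1.81 ± 0.15, 3.50-fold, adjusted p = 4.86e-08). The visceral endoderm and liver markers summed to 3530 to 4130 on day 4, against 1239 to 1559 on day 0, and 4 of 6 tested were higher. Afp and Alb were detected on no array of either day, and Ttr and Apoa2 on none of day 0. Amn and Apoa1 were detected on every array of both days. Of 7 tested markers of mesenchyme and smooth muscle, 4 were also higher and 0 lower on day 4 than on day 0. The visceral endoderm and liver markers summed to 19437 to 23791 on day 8, while ferroportin levels of days 4 and 8 overlapped. The part of either list in the ferroportin result was not tested. Slc11a2, the DMT1 importer of ferrous iron, was higher on day 15 than on day 0 (log2 change 0.44 ± 0.10, 1.36-fold, adjusted p = 0.000664). Slc48a1, a heme carrier of lysosomes, was lower on day 4 than on day 0 (log2 change -0.61 ± 0.12, 1.53-fold, adjusted p = 0.00063) and on day 8 than on day 4 (log2 change -0.63 ± 0.12, 1.55-fold, adjusted p = 0.000162). Slc41a2, a magnesium carrier, was detected on no array of day 0 and all of day 15, with day 15 at least 1.78-fold higher (log2 change 1.18 ± 0.12, adjusted p = 6.9e-08). Slc11a1, the phagosomal metal carrier NRAMP1 of macrophages, was lower on day 15 than on day 0 with the probe that stands for it (log2 change -0.45 ± 0.14, 1.36-fold, adjusted p = 0.0116), and its second probe was lower too (-0.33). In all, 6 of the 8 were higher on day 15 than on day 0 (75%, background 31.8%) and 2 lower (25%, background 35.6%), and without day 15 replicate 1 the count of higher genes became 4.

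Mitochondrial carriers of the Slc25 family (29 genes) exchange metabolites, nucleotides and phosphate across the inner mitochondrial membrane. Of these, 8 were higher (27.6%, background 31.8%) and 10 lower (34.5%, background 35.6%) on day 15 than on day 0, with a median change of -0.08, the same to 2 decimals as that of all genes; without day 0 replicate 2 the counts became 5 and 9. On day 8 against day 4, 5 were higher (17.2%, background 28.5%) and 9 lower (31%, background 26.3%). Slc25a13, the citrin exchanger of aspartate and glutamate in the urea cycle and malate shuttle, had a level of 9.36, 9.29 and 8.86 for day 0, 8.54, 8.30 and 8.72 for day 4, 7.91, 7.82 and 7.82 for day 8, and 7.55, 7.11 and 7.28 for day 15. Day 0 lay above all later days and day 15 was lowest. It was lower on day 4 than on day 0 (log2 change -0.65 ± 0.15, 1.57-fold, adjusted p = 0.00289) and on day 15 than on day 0 (log2 change -1.86 ± 0.15, 3.62-fold, adjusted p = 4.46e-09). Slc25a15, the ornithine carrier of the urea cycle, was lower in both comparisons as well (log2 change -0.82 ± 0.13, 1.76-fold, adjusted p = 9.06e-05, and log2 change -1.63 ± 0.13, 3.09-fold, adjusted p = 3.58e-09). Second probes of both genes were lower on day 15 than on day 0, by smaller amounts (-0.77 for Slc25a13 and -0.62 for Slc25a15).

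Slc25a24, a calcium-regulated carrier of ATP-magnesium and phosphate, went up. Its level was 6.79, 6.69 and 6.85 for day 0, 6.98, 6.76 and 6.76 for day 4, 8.29, 8.01 and 7.89 for day 8, and 8.97, 8.74 and 8.52 for day 15. Days 8 and 15 lay above days 0 and 4. Day 8 exceeded day 4 (log2 change 1.23 ± 0.13, 2.34-fold, adjusted p = 3.84e-07), and day 15 was 3.90-fold above day 0 (log2 change 1.96 ± 0.13, adjusted p = 4.59e-10). Slc25a33, a pyrimidine nucleotide carrier, was lower on day 8 than on day 4 (log2 change -1.17 ± 0.17, 2.25-fold, adjusted p = 1.37e-05). The exchangers of ADP and ATP moved in opposite directions between day 4 and day 8. Slc25a4, the form of muscle and heart, singled out after its values were seen, had a level of 11.17, 11.41 and 11.44 for day 0, 10.97, 11.02 and 10.996 for day 4, 12.06, 11.98 and 11.99 for day 8, and 11.80, 11.80 and 12.11 for day 15. Slc25a5, the form of proliferating cells, had a level of 13.48, 13.68 and 13.58 for day 0, 13.76, 13.80 and 13.88 for day 4, 13.16, 12.98 and 13.23 for day 8, and 12.96, 13.14 and 12.95 for day 15. Day 8 lay above day 4 in every array of Slc25a4 and below it in every array of Slc25a5. On day 8 against day 4, Slc25a4 was higher (log2 change 1.01 ± 0.11, 2.01-fold, adjusted p = 3.03e-07) and Slc25a5 lower (log2 change -0.69 ± 0.09, 1.62-fold, adjusted p = 4.68e-06). Slc25a10, the dicarboxylate carrier of liver, was higher on day 8 than on day 4 (log2 change 0.64 ± 0.11, 1.56-fold, adjusted p = 8.21e-05).

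Nucleoside and nucleotide sugar carriers (11 genes) had 2 higher (18.2%, background 31.8%) and 4 lower (36.4%, background 35.6%) on day 15 than on day 0, so the share of falls lay near that of all genes. Without day 15 replicate 3 the counts became 4 and 3. Slc29a1, the ENT1 nucleoside carrier of the cell membrane, had a level of 10.54, 10.74 and 10.31 for day 0, 9.58, 9.37 and 9.54 for day 4, 8.37, 8.52 and 8.46 for day 8, and 8.49, 8.56 and 8.21 for day 15. It fell in both early steps and days 8 and 15 overlapped. Day 4 was lower than day 0 (log2 change -1.03 ± 0.13, 2.04-fold, adjusted p = 7.13e-06), and day 8 lower than day 4 (log2 change -1.05 ± 0.13, 2.07-fold, adjusted p = 1.83e-06). All 4 detected members of the family passed on day 15 against day 0, 1 as higher and 3 as lower. Over all genes tested, 31.8% were higher and 35.6% lower in that comparison. Slc29a2, the ENT2 nucleoside carrier, was 2.59-fold lower (log2 change -1.37 ± 0.15, adjusted p = 4.18e-07), and Slc29a4, a carrier of monoamines and adenosine, 1.85-fold lower (log2 change -0.89 ± 0.16, adjusted p = 0.000106). Slc29a3, the nucleoside carrier of lysosomes and mitochondria, was 1.53-fold higher (log2 change 0.61 ± 0.11, adjusted p = 8.61e-05).

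Carriers of organic acids, organic cations and bile acids (15 genes) had 3 higher (20%, background 31.8%), 4 lower (26.7%, background 35.6%) and 8 not past the test on day 15 against day 0. Slc16a6, a monocarboxylate family member that carries ketone bodies in zebrafish liver, had a level of 8.99, 9.39 and 9.27 for day 0, 8.37, 8.31 and 8.16 for day 4, 7.39, 7.56 and 7.47 for day 8, and 7.05, 7.21 and 7.42 for day 15. Its days fell in order without overlap up to day 8. Day 4 was lower than day 0 (log2 change -0.94 ± 0.13, 1.92-fold, adjusted p = 1.94e-05) and day 8 lower than day 4 (log2 change -0.81 ± 0.13, 1.75-fold, adjusted p = 3.03e-05). Slc16a13, another family member, was highest on day 8, above day 4 (log2 change 0.75 ± 0.14, 1.69-fold, adjusted p = 0.000236), and day 15 was lower than day 8 (log2 change -1.005 ± 0.14, 2.01-fold, adjusted p = 4.19e-05). Slc47a1, the MATE1 exporter of organic cations, was lower on day 15 than on day 0 (log2 change -0.90 ± 0.14, 1.87-fold, adjusted p = 1.46e-05). Slc22a17, a receptor for lipocalin-2, was detected on no array of day 0 with day 15 at least 1.50-fold higher (log2 change 0.92 ± 0.14, adjusted p = 2.11e-05); its second probe did not pass (-0.22). Slc16a3, the MCT4 lactate exporter, was among the flattest of the genes detected on every array, with changes of -0.08, -0.03 and -0.03 in the 3 steps. Its second probe was lower on day 15 than on day 0 (-0.25). The probe for Slc16a1, the MCT1 lactate carrier, was detected on 0 arrays.

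Of the vesicle and phosphate-anion carriers (5 genes), 3 were higher on day 15 than on day 8 (60%, background 12.5%), 0 were lower and 2 did not pass. Leaving out 1 array at a time gave 2 to 3 higher, and Slc18a2 did not pass without day 8 replicate 3 or day 15 replicate 1. None of the 5 was detected on all 12 arrays. Slc17a6, the VGLUT2 carrier that loads glutamate into synaptic vesicles, had a level of 5.86, 6.18 and 6.02 for day 0, 6.20, 6.20 and 6.14 for day 4, 6.03, 6.50 and 5.84 for day 8, and 8.29, 8.54 and 8.37 for day 15. Its probe was detected on no array of days 0 and 4, on 1 of day 8 and on all 3 of day 15, and all arrays before day 15 lay near the floor. Day 15 was at least 4.08-fold higher than day 0 (log2 change 2.38 ± 0.14, adjusted p = 8.02e-11). Slc32a1, the vesicular carrier of GABA and glycine, was detected on no array of day 8 and all 3 of day 15, where it was at least 1.39-fold higher (log2 change 0.55 ± 0.12, adjusted p = 0.00236). Slc18a2, the vesicular monoamine carrier VMAT2, had a day 15 level at least 1.46-fold higher than day 0 (log2 change 0.76 ± 0.12, adjusted p = 2.77e-05). Slc17a5, the sialin carrier of lysosomal sialic acid, rose earlier instead: it was detected on 1 array of day 0 and was higher on day 4 (log2 change 1.22 ± 0.14, 2.33-fold, adjusted p = 3.14e-06).

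In the same arrays the 8 neural markers summed to 1646 to 2122 on day 15, against 613 to 695 on day 8 (linear intensity), and all 5 that were tested were higher. Dcx, Nefm, Tubb3, Stmn2 and Elavl3 were detected on all 3 arrays of day 15, and Pax6, Map2 and Nefl on 0. On day 0 the sum was 1556 to 1643, with Tubb3, Stmn2 and Elavl3 detected on all 3 arrays and Dcx and Nefm on 0. The part of these markers in the rise of the vesicle carriers was not tested.

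Carriers of vitamins, lipids and others (19 genes) held the largest rise and the largest fall over the whole series. Slc46a3, a lysosomal carrier, had a level of 6.47, 6.77 and 6.35 for day 0, 7.15, 7.14 and 7.20 for day 4, 8.63, 8.67 and 8.93 for day 8, and 9.59, 9.63 and 9.26 for day 15, with detection on 2 arrays of day 0. It rose at every step. Day 15 was 7.80-fold above day 0 (log2 change 2.96 ± 0.13, adjusted p = 2.31e-12). Slc52a3, a riboflavin carrier, had a level of 9.57, 9.29 and 9.47 for day 0, 7.46, 7.55 and 7.19 for day 4, 7.51, 7.41 and 7.51 for day 8, and 7.20, 7.07 and 7.42 for day 15. Day 0 stood above all later days, which overlapped. Day 4 was lower than day 0 (log2 change -2.04 ± 0.12, 4.12-fold, adjusted p = 1.21e-09). The folate carriers did not move together: Slc19a1, the reduced folate carrier, singled out after its values were seen, was lower on day 15 than on day 0 (log2 change -0.98 ± 0.12, 1.98-fold, adjusted p = 9.07e-07), and Slc46a1, the proton-coupled folate carrier, had a change of 0.03 ± 0.11.

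Fatty acid transport proteins of the Slc27 family went in both directions. Slc27a2, the very long chain acyl-CoA synthetase of liver and kidney, had a level of 7.57, 7.16 and 7.57 for day 0, 7.90, 7.91 and 7.97 for day 4, 6.14, 5.94 and 6.25 for day 8, and 6.07, 6.12 and 5.99 for day 15. It was detected on every array of days 0 and 4 and on none of days 8 and 15. Day 8 was at least 2.99-fold lower than day 4 (log2 change -1.81 ± 0.12, adjusted p = 7.55e-10). Slc27a3 was higher on day 8 than on day 4 (log2 change 1.08 ± 0.14, 2.12-fold, adjusted p = 3.08e-06). Slc27a5, the bile acid-CoA ligase of liver, was detected on the 3 arrays of day 8 alone. Slc23a3, a family member of the vitamin C carriers, was detected on no array of day 0 and all later ones; day 15 was at least 3.05-fold higher than day 0 (log2 change 1.99 ± 0.14, adjusted p = 7.38e-10). Slc44a3, of the choline carrier family, had a level of 6.34, 6.09 and 6.16 for day 0, 6.52, 6.16 and 6.67 for day 4, 7.97, 7.96 and 7.87 for day 8, and 6.96, 7.13 and 6.65 for day 15. It peaked on day 8, above day 4 (log2 change 1.48 ± 0.14, 2.79-fold, adjusted p = 6.28e-08), and was lower on day 15 than on day 8 (log2 change -1.02 ± 0.14, 2.03-fold, adjusted p = 2.12e-05). Slc66a2, of the family of lysosomal cystine and cationic amino acid carriers, was highest on day 15, above day 8 (log2 change 1.10 ± 0.11, 2.15-fold, adjusted p = 3.65e-07). Compared with day 0, on day 15 8 genes of the class were higher (42.1%, background 31.8%) and 4 lower (21.1%, background 35.6%). On day 8 against day 4, 11 were higher (57.9%, background 28.5%) and 4 lower (21.1%, background 26.3%), and the count of lower genes was 2 without day 8 replicate 1 or day 4 replicate 2 and 1 with scanner intensities scaled to a common median. Of the 12 genes of the class detected on every array, 4 were higher (33.3%, background 29.7%) and 3 lower (25%, background 40.5%) on day 15 than on day 0. On day 8 against day 4 these 12 gave 6 higher (50%, background 28.3%) and 3 lower (25%, background 29.1%).

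Detection itself shifted over the days. On day 0, 119 of the 169 genes were detected on all 3 arrays and 21 on none; on day 4 these counts were 125 and 16, on day 8 141 and 7, and on day 15 145 and 10. Detection was absent on days 0 and 4 for 9 genes that were present later, Slc34a2 and Slc5a5 among them. It was absent on days 8 and 15 for 5 genes that were present earlier: Slc27a2, Slc34a3, Slc5a11, Slc2a5 and Slc24a1. The arrays of day 15 also had more detected probes in all, 12283 to 12554 against 11253 to 11855 on day 0, out of 24613, and the part of this in the counts was not tested. These totals run over all probes, without the filter on detection. The counts by day were not made for all genes tested, so the shift is not read as particular to the solute carriers. The genes with the smallest span among those detected on every array were Slc16a3, Slc25a22 (a glutamate carrier of mitochondria), Slc25a40 (a glutathione carrier of mitochondria) and Slc44a1 (a choline carrier).

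Membrane transporters outside the symbol rule were counted beside the members. They were 32 tested genes of the ABC pumps, organic anion polypeptides, aquaporins and sodium pump subunits. The organic anion polypeptides have Slco symbols, which begin with Slc but do not have the form of the rule. Of these, 12 were higher (37.5%, background 31.8%) and 10 lower (31.2%, background 35.6%) on day 15 than on day 0, and 13 higher (40.6%, background 28.5%) and 9 lower (28.1%, background 26.3%) on day 8 than on day 4. The corresponding shares on day 15 against day 0 were 40.2% and 28.4% for the members, and the difference was not tested.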

How the data were processed

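The authors' deposited files hold, for 24613 probes on 12 arrays, scanner intensity values with a detection p-value for each, not background-subtracted, and a second table of log2 values. Per the file headers the first table is non-normalized. The log2 values deposited by the authors keep the rank order of the scanner intensity within each array and have medians of 6.27 to 6.30; the sources used here do not give their method. No other processing step was taken from the labels.

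The log2 values were used as deposited. Kept probes (11787) had 1 symbol and were detected, at p under 0.05, on 3 arrays or more; the probe with the highest mean stood for its gene, which left 9657 genes. A limma 3.58.1 linear model (R 4.3.3) with a mean for each day, all 12 arrays and moderated variances that follow intensity was fitted, with Benjamini-Hochberg adjustment over all genes and a threshold of 0.05; 3 arrays against 3 limit the precision of every value. Where a probe was detected on no array of its dimmer day, the fold is the brighter mean over the mean floor (the lowest level among detected probes) of that day, a lower bound. Log2 changes beside it are fitted values and no bound.

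Genes were named by a rule: the 6 largest rises and falls per comparison without overlap between days, the 4 widest spans per class, opposite movers within a family, genes whose probes disagree, edge and flat genes, and genes of known role. The members, classes and lists were chosen with earlier results of these data known. Alternatives were neqc (offset 16), median scaling, other detection filters, the mean of probes, a replicate block, no trend, the arrays of 2 days alone and leaving out each array. Same-numbered arrays correlated in their deviations from day means: all 3 pairs lay above 0.1 for days 15 and 0 (0.44 to 0.54) and days 15 and 8 (0.36 to 0.48), so the numbers, from the titles, pair these arrays, and 2 of 3 did for days 4 and 0 and for days 8 and 4, where they were not taken to pair. Calls are from the fit without the block throughout. All 169 genes matched the reference by Entrez identifier. Promoters are RefSeq's. Genome positions of probes were not used here.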

Additional observations from a re-analysis of the deposited data

How the results depend on the processing

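No change of a named gene that passed turned its sign under any alternative run, but the balance of higher and lower counts turned in some. Of 193 passed comparisons of named genes, 164 passed under every alternative and 29 were lost under at least 1. No comparison given with an adjusted p in the report was among the 29. The falls of Slc39a5 and Slc25a13 from day 8 to day 15, given without one, were among them. Class counts also hold comparisons that were lost, such as the rise of Slc18a2 from day 8 to day 15. Restricting the test to genes detected on all 12 arrays leaves 107 solute carriers by construction, and gave 16 higher and 16 lower on day 4 against day 0, 34 and 37 on day 8 against day 4, 15 and 11 on day 15 against day 8, and 39 and 41 on day 15 against day 0. Ion transporters gave 7 higher and 6 lower on day 15 against day 0 with median scaling, and 8 and 7 on day 8 against day 4 without day 4 replicate 1; the other metal and heme carriers gave 1 higher and 2 lower on day 4 against day 0, in place of 2 and 1, with median scaling or without day 4 replicate 1. With the replicate number as a block, the counts were 34 higher and 28 lower on day 15 against day 8 and 71 and 51 on day 15 against day 0, the paired comparisons; 9 changes of named genes passed with the block alone and 0 were lost. For the others they were 36 and 26 on day 4 against day 0, where the fit without it gave 27 and 17, and 61 and 45 on day 8 against day 4. Shares over all genes were not counted for the block or for the test restricted to genes detected on all 12 arrays. The counts under these alternatives thus have no background and are not read as results about the solute carriers. Of 12 arrays, 10 correlated best with arrays of their own number. Leaving out each array in turn gave 125 to 128 genes changed over the 4 days and 49 to 57 higher on day 8 against day 4. With neqc, which subtracts background, all passed changes kept their direction, and the 116 on day 15 against day 0 were larger by a median factor of 1.34. Levels near the detection floor, and 3 arrays per day, limit what small changes can be seen.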
